A study of Mus musculus with 14 samples.

Results

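Hox cluster genes encode homeodomain transcription factors that lie side by side in 4 clusters, HoxA to HoxD, and were measured here in RNA from whole heads of E12.5 mouse embryos. Members were the loci of the deposited tables with a gene name made of Hox, a cluster letter from a to d and a paralogue number. The rule found 39 Hox genes in 35 of 67811 loci, 10 in HoxA, 9 in HoxB, 9 in HoxC and 7 in HoxD. The study compared 6 Zcchc8-/- heads (KO), 3 Zcchc8+/- heads (HET) and 5 Zcchc8+/+ heads (WT), all labelled C57BL/6J and with no treatment named. Heads included the brain and were homogenized whole, and a stranded library was made from the mRNA of each. The allele, the sex of the embryos and the litters are not given in the labels. The ZCCHC8 protein holds together the nuclear exosome targeting complex, through which short-lived nuclear RNA reaches the exosome and is degraded. Libraries are named by genotype and number, KO1 to KO6, HET3 to HET5 and WT1 to WT5. Whether each library is a separate embryo is not stated, and the p-values therefore measure the spread between libraries, which may be technical in part.

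Along the body axis, Hox genes are switched on in the order in which they lie in a cluster. Genes with low paralogue numbers reach into the hindbrain and the pharyngeal arches, genes with middle numbers start at the level of the neck and upper spinal cord, and genes with high numbers are used in the lower trunk, the limbs and the genital bud. Forebrain and midbrain express almost none of them, so the Hox-expressing tissues of a head are the hindbrain, the neural crest of the rear arches and any neck tissue that is kept with it.

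Levels are FPKM, fragments per kilobase of transcript, scaled to the fragments of the library, which the authors estimated with Cuffdiff for each locus. A locus with several gene names carries 1 value for all of them. Of the 35 Hox loci, 6 held several Hox names, 7 held a Hox name beside another name, and the names Hoxa3 and Hoxc4 each occurred in 2 loci. Genotypes were compared with limma-trend on log2(FPKM + 0.1) for the 18217 loci that reached 0.5 FPKM in 3 or more libraries, with Benjamini-Hochberg adjustment over all of them and a threshold of 0.05. Fold changes are on that scale, which understates the change of low loci, except in the authors' matrix and the alternatives with another pseudocount. The filter kept 14 Hox loci, 4 in HoxA, 5 in HoxB, 2 in HoxC and 3 in HoxD.

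Zcchc8 RNA (chromosome 5, 123698294 to 123721100, mm10) averaged 15.5 ± 3.91 FPKM in KO (SD, n = 6), 25.7 ± 1.64 FPKM in HET (SD, n = 3) and 39.7 ± 2.32 FPKM in WT (SD, n = 5). The KO against WT difference was -1.39 log2 (SE 0.15, limma-trend adjusted p = 2.1e-06, two-sided exact permutation p = 0.00216). The files used here give FPKM and no read counts, so the total depth and the limit of detection are unknown.

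KO1 and KO2 stood apart from the other KO libraries in 2 marker genes outside the Hox clusters, Hand2 and Nkx2-5. These 2 genes are named because they set libraries apart, so they are no independent ground for splitting the KO group. Hand2, a transcription factor of the lower jaw and the pharyngeal arches, had 0.417 FPKM in KO1 and 0.233 FPKM in KO2, against 9.05 to 12.6 FPKM in the other KO libraries, 8.84 to 10.2 FPKM in HET and 6.31 to 10.9 FPKM in WT. Nkx2-5, a cardiac and pharyngeal factor, had 0.014 FPKM in KO1 and 0.00677 FPKM in KO2, and WT3 was also low at 0.0932 FPKM. KO1 and KO2 were the 2 lowest libraries for both genes. Hand2 is on the list of pharyngeal and neck markers, and Nkx2-5 on that of trunk organ markers. The summed FPKM of 7 pharyngeal and neck markers was 61.1 in KO1, 48.5 in KO2 and 55.9 to 80.1 in the other KO libraries, against 62.8 to 75.9 in WT. In that sum, which includes Hand2, KO1 was above KO3 (55.9 FPKM). In KO2 the 6 forebrain markers summed to 234 FPKM, against 153 to 192 FPKM in WT, and the 5 midbrain markers summed to 81.8 FPKM, against 50.4 to 64.0 FPKM in WT. KO2 was above the WT range for both brain regions, whereas the forebrain sums of KO1 (147 FPKM) and KO3 (143 FPKM) were below it. The 8 hindbrain and brainstem neuron markers summed to 35.4 FPKM in KO2, 42.4 FPKM in KO3 and 50.6 FPKM in KO1, against 43.8 to 53.2 FPKM in WT. Markers of trunk organs were low in all 14 libraries, with sums of 0.96 to 3.07 FPKM in KO and 1.92 to 2.77 FPKM in WT, and the intestinal factor Cdx2 and the pancreatic factor Pdx1 were at or near 0. The part of these differences in the Hox results was not tested, and Hox comparisons with KO are also given without KO1 and KO2. In whole-tissue RNA, fewer cells of a type and less RNA per cell cannot be told apart.

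**Figure D1:**
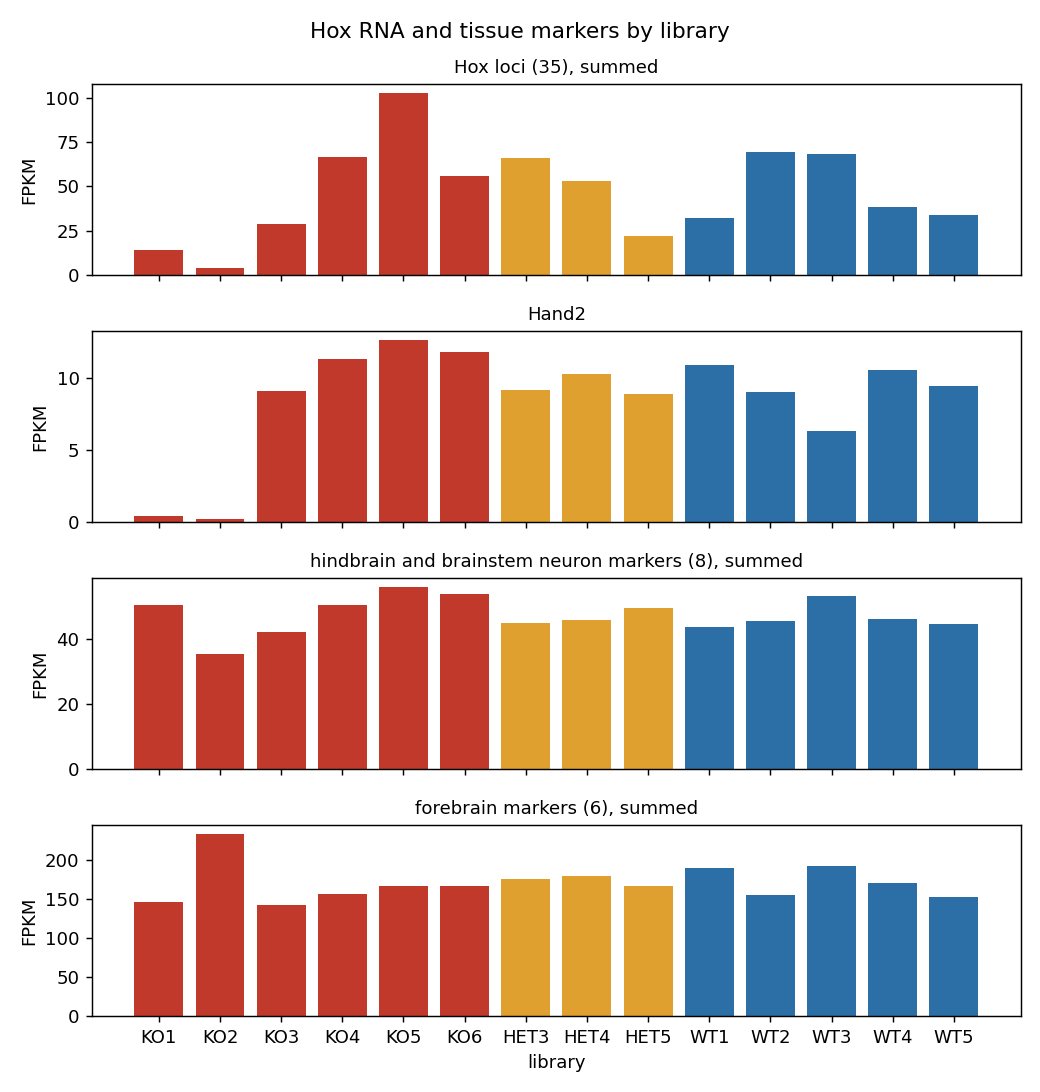
Summed FPKM of the 35 Hox loci, FPKM of Hand2, and summed FPKM of the hindbrain and forebrain marker lists, with 1 bar for each of the 14 libraries (red KO, yellow HET, blue WT). Total Hox FPKM ran from 4.04 in KO2 to 103 in KO5, and Hand2 was below 0.5 FPKM in KO1 and KO2 and in no other library.

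The heads contained RNA of paralogues 1 to 6 and 8 at measurable levels and almost none of the genes past them. The summed FPKM of all 35 Hox loci was 14.3, 4.04, 28.6, 66.5, 103 and 55.8 in KO1 to KO6, against 66.2, 53.3 and 22.1 in HET3 to HET5, and 32.0, 69.6, 68.6, 38.5 and 33.97 in WT1 to WT5. The genotypes overlapped, and the KO libraries held both the lowest and the highest sums. HoxA gave 16.0 ± 13.3 FPKM in KO, 15.1 ± 6.98 FPKM in HET and 16.8 ± 6.57 FPKM in WT, and HoxB gave 16.5 ± 14.3 FPKM in KO, 17.4 ± 9.41 FPKM in HET and 16.7 ± 7.74 FPKM in WT (SD, n = 6, 3 and 5). HoxD summed to 9.36 ± 5.83 FPKM in KO, 10.3 ± 2.99 FPKM in HET and 11.6 ± 2.69 FPKM in WT, and HoxC to 3.58 ± 3.78 FPKM in KO, 4.38 ± 3.38 FPKM in HET and 3.41 ± 2.35 FPKM in WT. HoxC, which has no paralogue 1, 2 or 3, thus had the lowest mean sum of the 4 clusters in each genotype.

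The spread between libraries is given as an SD within genotypes, pooled over KO, HET and WT. It was wide for most Hox loci. It was wider for the loci of paralogues 4 and 5 in HoxA and HoxB than for those of paralogues 1 and 2. Hoxd1 (paralogue 1) had a within-genotype SD of 0.24 log2, Hoxb2 0.97 log2 and the Hoxa2, Hoxa3 locus 1.15 log2. The loci that start with paralogue 3 had 1.53 to 1.66 log2, Hoxc4 had 2.07 log2, Hoxa4 2.19 log2, the Hoxa5, Hoxa6 locus 2.23 log2 and Hoxb5 2.66 log2. The Hoxc5, Hoxc10 locus, at 1.61 log2, was below Hoxc4 and in the range of the paralogue 3 loci. The median of all 18217 tested loci was 0.17 log2 and their 95th percentile 0.87 log2, so 12 of the 14 Hox loci lay above that percentile. Hoxb5 ranked 86 of 18217 in this spread. The exceptions were Hoxd1 and Hoxd8. Hoxd8 had an SD of 0.55 log2, less than the other loci of paralogues 2 to 8. Loci of paralogue 6 and 8 in HoxB were near 0 in most libraries, where the pseudocount limits the spread, and had SDs of 1.70 and 1.54 log2. The pooled SD does not separate the genotypes. At Hoxb2 and the Hoxa2, Hoxa3, the Hoxb3, Hoxb4 and the Hoxd3, Hoxd4 loci, highest over lowest FPKM was 1.81 to 2.16 in WT. In KO it was 17.2 to 128 at these loci. The lowest library at each was KO2, at 1.8% to 12.1% of the WT median, and KO1 was at 12.1% to 96.1%. KO3 to KO6 were at 72.8% to 230% of the WT median there, against 70.5% to 168% in the WT libraries. The wide KO range at these loci therefore rested on KO2 and, except at Hoxb2, on KO1. At Hoxb5 highest over lowest FPKM was wide in both genotypes, at 22.9 in WT and 2202 in KO.

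**Figure D2:**
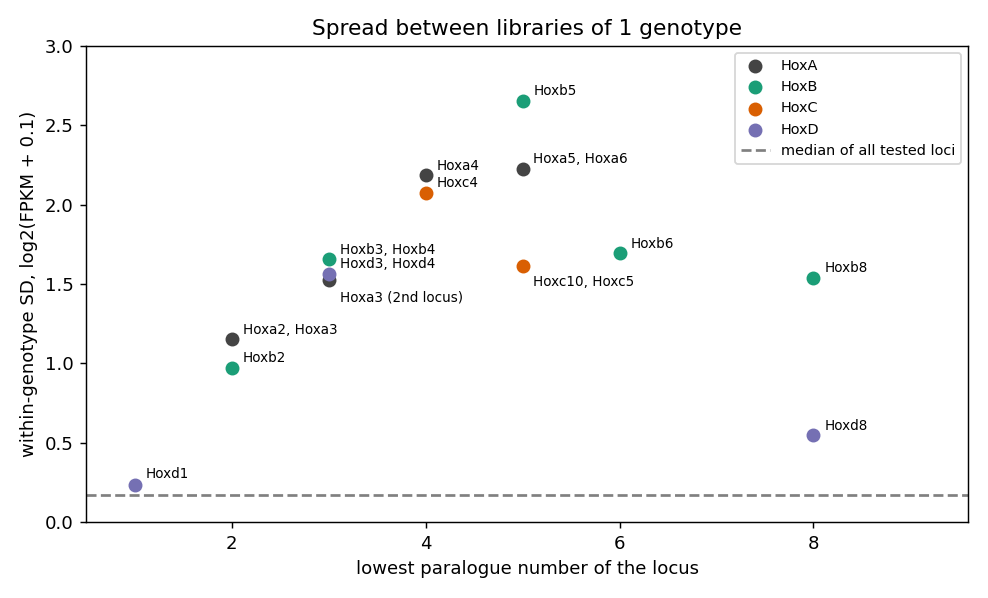
Pooled within-genotype SD of log2(FPKM + 0.1) for the 14 Hox loci past the filter, against the lowest paralogue number in the locus, coloured by cluster; the dashed line is the median of all tested loci (0.17). The SD is 0.24 for Hoxd1 and 2.66 for Hoxb5, while the Hoxc5, Hoxc10 locus is at 1.61 and Hoxd8 at 0.55.

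Hoxa2 reaches farther forward in the hindbrain than other Hox genes and sets the identity of the second pharyngeal arch. The Hoxa2, Hoxa3 locus (Hoxa2 at chromosome 6, 52162417 to 52164831, minus strand) had 4.45, 0.783, 8.27, 16.5, 20.2 and 12.7 FPKM in KO1 to KO6. It had 9.17, 8.60 and 6.53 FPKM in HET3 to HET5, and 7.70, 13.9, 13.4, 10.7 and 10.9 FPKM in WT1 to WT5. All 14 libraries were above 0.5 FPKM, and only KO2 was below 4 FPKM. The locus also carries the antisense name Hoxaas3, and no source used here gives the strand setting of the authors' estimates, so sense and antisense RNA cannot be told apart. Hoxb2 (chromosome 11, 96350525 to 96354012), which shapes the facial motor nucleus region of the hindbrain, had 4.07, 0.511, 3.6, 6.62, 8.80 and 6.47 FPKM in KO1 to KO6. It had 4.88, 3.68 and 3.66 FPKM in HET3 to HET5 and 3.65, 5.32, 6.91, 4.24 and 4.02 FPKM in WT1 to WT5. Here KO1 lay among the WT libraries and KO2 below every other library.

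Paralogues 3 and 4 pattern the rear hindbrain and the arches that form neck structures. The Hoxb3, Hoxb4 locus had 1.5, 0.117, 5.17, 12.2, 14.9 and 10.9 FPKM in KO1 to KO6, against 10.02, 9.34 and 3.41 FPKM in HET3 to HET5, and 6.50, 10.9, 10.9, 6.48 and 5.83 FPKM in WT1 to WT5. The Hoxd3, Hoxd4 locus had 0.819, 0.213, 4.94, 10.4, 13.9 and 9.90 FPKM in KO1 to KO6, against 8.38, 7.14 and 2.95 FPKM in HET3 to HET5, and 6.29, 9.08, 10.6, 6.79 and 4.92 FPKM in WT1 to WT5. In both loci KO1 and KO2 were the 2 lowest libraries, HET5 was the next lowest, and KO5 was the highest. Hoxa4 (chromosome 6, 52189671 to 52191753) had 0, 0.0129, 0.883, 4.86, 7.36 and 3.33 FPKM in KO1 to KO6, against 4.83, 4.31 and 0.181 FPKM in HET3 to HET5, and 1.16, 5.32, 4.45, 1.70 and 1.39 FPKM in WT1 to WT5. Hoxc4 (chromosome 15, 103018934 to 103036852) had 0, 0, 0.590, 3.33, 4.82 and 2.30 FPKM in KO1 to KO6, against 4.16, 3.41 and 0.109 FPKM in HET3 to HET5, and 0.943, 3.20, 3.66, 1.15 and 0.838 FPKM in WT1 to WT5. For these 2 genes KO3, HET5 and, less far, WT1, WT4 and WT5 were low as well.

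Paralogue 5 and the genes after it start near the boundary of hindbrain and spinal cord, and Hoxa5 and Hoxc5 are needed in mice for the motor neurons that drive the diaphragm. Hoxb5 (chromosome 11, 96303336 to 96306121) had 0.0437, 0.00529, 0.173, 3.16, 11.7 and 2.32 FPKM in KO1 to KO6. It had 8.30, 5.46 and 0.00483 FPKM in HET3 to HET5, and 0.334, 7.65, 5.86, 1.08 and 0.507 FPKM in WT1 to WT5. The lowest library was HET5, and even the 5 WT libraries ran from 0.334 to 7.65 FPKM. The Hoxa5, Hoxa6 locus had 0.0166, 0.0321, 0.125, 1.68, 6.80 and 1.52 FPKM in KO1 to KO6, against 6.10, 3.58 and 0.132 FPKM in HET3 to HET5, and 0.267, 5.11, 4.07, 0.578 and 0.496 FPKM in WT1 to WT5. The Hoxc5, Hoxc10 locus had 0.0577 to 3.58 FPKM in KO with a median of 0.98, 2.31, 1.63 and 0.19 FPKM in HET3 to HET5, and 0.327, 1.90, 2.12, 0.617 and 0.646 FPKM in WT1 to WT5. Hoxc10 belongs to the posterior genes, and a value shared with Hoxc5 does not show that it was expressed. Hoxb6 reached 2.23 FPKM in KO5, 1.55 FPKM in HET3 and 1.21 FPKM in WT2, and was below 0.4 FPKM in every other library. Hoxb8, which in mice also marks a lineage of microglia, reached 2.06 FPKM in KO5, 0.868 FPKM in HET3 and 0.729 FPKM in WT2 and was at or below 0.225 FPKM elsewhere. The libraries high in Hoxb6 and Hoxb8 were thus the one in each genotype that was highest in Hoxb5. The second Hoxa3 locus had 1.55, 1.12 and 0.713 FPKM in KO4 to KO6 and 0 in KO1 to KO3, against 0.396, 0 and 0.0748 FPKM in HET3 to HET5 and at most 0.237 FPKM in WT.

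**Figure D3:**
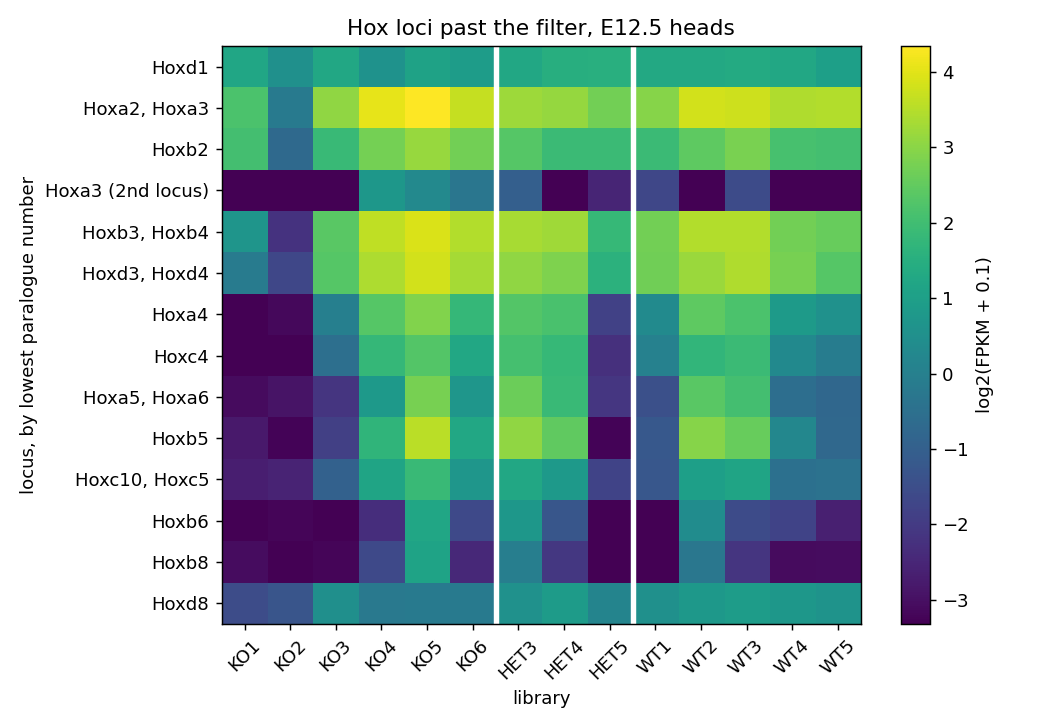
Colour gives log2(FPKM + 0.1) of the 14 Hox loci past the filter (rows, by lowest paralogue number) in the 14 libraries (columns; white lines part KO, HET and WT). Compared within rows, KO2 is dark from the row of Hoxa2, Hoxa3 down and KO1 from the rows of paralogues 3 and 4. HET5 is dark in the rows of Hoxa4, Hoxc4 and paralogue 5, and KO3 in those of paralogue 5. Hoxd1 and Hoxd8 differ less between libraries than the rows between them.

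Read by library, low levels began at different paralogue numbers, with exceptions. KO2 had 7.18% of the WT median at the Hoxa2, Hoxa3 locus and 12.1% at Hoxb2, while KO1 had 40.8% and 96.1% there and 23.2% at the Hoxb3, Hoxb4 locus. HET5 had 86.4% at Hoxb2, 52.5% at the Hoxb3, Hoxb4 locus, 10.6% at Hoxa4 and 0.449% at Hoxb5, but 64.3% at Hoxd8. KO3 had 79.6% at the Hoxb3, Hoxb4 locus, 51.9% at Hoxa4 and 16.1% at Hoxb5, but 65.7% at the Hoxc5, Hoxc10 locus and 83.6% at Hoxd8. KO5 was the highest library in 11 of the 14 loci, whereas HET5 was highest for Hoxd1, WT3 for Hoxd8 and KO4 for the second Hoxa3 locus. KO2 was the lowest library, without a tie, in 5 loci, KO1 in 4 and HET5 in 1. KO4, KO5 and KO6 were at or above the WT median for the loci of paralogues 2 to 5. At Hoxd8 every KO library was below every WT library, and at each of the other loci the KO and WT libraries overlapped.

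Posterior and silent members complete the inventory. The 21 loci below the filter include 19 that stayed below 0.5 FPKM in every library. The 14 loci that carry paralogues 9 to 13 alone did not exceed 0.386 FPKM, the value of Hoxd9 in WT3, and Hoxa11 was listed at 0 in every library. Hoxa9, Hoxa10, Hoxa13, Hoxb13, Hoxc9, Hoxc11, Hoxc12, Hoxd12, Hoxd13 and the Hoxd10, Hoxd11 locus did not exceed 0.078 FPKM, the highest value of Hoxd13. Hoxb9 reached 0.198 FPKM in KO4 and Hoxc13 reached 0.225 FPKM in HET5, both above 0 in all 14 libraries. Hoxc11 and Hoxc9 were above 0 in 1 library each. Of the middle genes, Hoxa7 reached 0.12 FPKM, Hoxb7 0.224 FPKM and Hoxc6 0.194 FPKM, each highest in KO5, and Hoxc8 reached 0.047 FPKM. Hoxb1, an early gene of the hindbrain, reached 0.098 FPKM in KO5. The second Hoxc4 locus reached 1.01 FPKM in KO5 and had 0 in KO1 and KO2.

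In KO against WT, the test called 0 of the 14 Hox loci higher and 1 lower, Hoxd8. Over all tested loci 24.6% were called, 19.0% higher and 5.61% lower, so 1 lower call among 14 is near that background. An unadjusted p under 0.05 was found for 2 Hox loci, Hoxd8 and Hoxd1. The estimate was below 0 for 12 loci and above 0 for 2, with a median of -0.80 log2, against -0.0019 log2 over all tested loci. Without KO1 and KO2, every locus of paralogues 2 to 5 with an estimate below 0 had one above 0, and none of them was called in either fit. The Hoxd3, Hoxd4 locus, for example, was at -1.04 log2 (SE 0.93) with all libraries and at 0.33 log2 (SE 0.36) without KO1 and KO2. KO1 and KO2 were left out after seeing the data. At each locus that moved across 0, KO1 or KO2 was the lowest KO library or tied for it. The upward move therefore followed from the choice of libraries. With all libraries, adjusted p-values of the 13 other loci ran from 0.108 for Hoxd1 to 0.855 for Hoxb6, and their standard errors reached 1.57 log2 for Hoxb5. At such standard errors, a p above the threshold does not show that KO and WT were alike.

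Most other estimates were of the size of their standard errors. With all 6 KO libraries, Hoxb2 was at -0.29 log2 (SE 0.56) and the Hoxa2, Hoxa3 locus at -0.63 log2 (SE 0.68). The Hoxb3, Hoxb4 locus was at -1.01 log2 (SE 0.99), Hoxc4 at -1.09 log2 (SE 1.22) and Hoxa4 at -1.19 log2 (SE 1.29). The Hoxa5, Hoxa6 locus was at -0.98 log2 (SE 1.31), Hoxb5 at -0.998 log2 (SE 1.57), the Hoxc5, Hoxc10 locus at -0.41 log2 (SE 0.92) and Hoxb6 at -0.31 log2 (SE 0.93). Hoxb5 thus had the widest error of the 14 loci. Above 0 were Hoxb8 at 0.29 log2 (SE 0.83) and the second Hoxa3 locus at 1.10 log2 (SE 0.83). In each of these loci the KO and WT libraries overlapped. Without KO1 and KO2, Hoxb2 was at 0.36 log2 (SE 0.24), the Hoxa2, Hoxa3 locus at 0.30 log2 (SE 0.25) and the Hoxb3, Hoxb4 locus at 0.36 log2 (SE 0.38). In that fit Hoxa4 was at 0.47 log2 (SE 0.94), Hoxc4 at 0.42 log2 (SE 0.94), the Hoxa5, Hoxa6 locus at 0.20 log2 (SE 1.32), Hoxb5 at 0.40 log2 (SE 1.60) and the Hoxc5, Hoxc10 locus at 0.70 log2 (SE 0.76). Hoxb6 was at 0.27 log2 (SE 1.06), Hoxb8 at 0.84 log2 (SE 0.95) and the second Hoxa3 locus at 1.99 log2 (SE 0.80, limma-trend adjusted p = 0.0962). Hoxd8 was the 1 member called in that fit too.

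**Figure D4:**
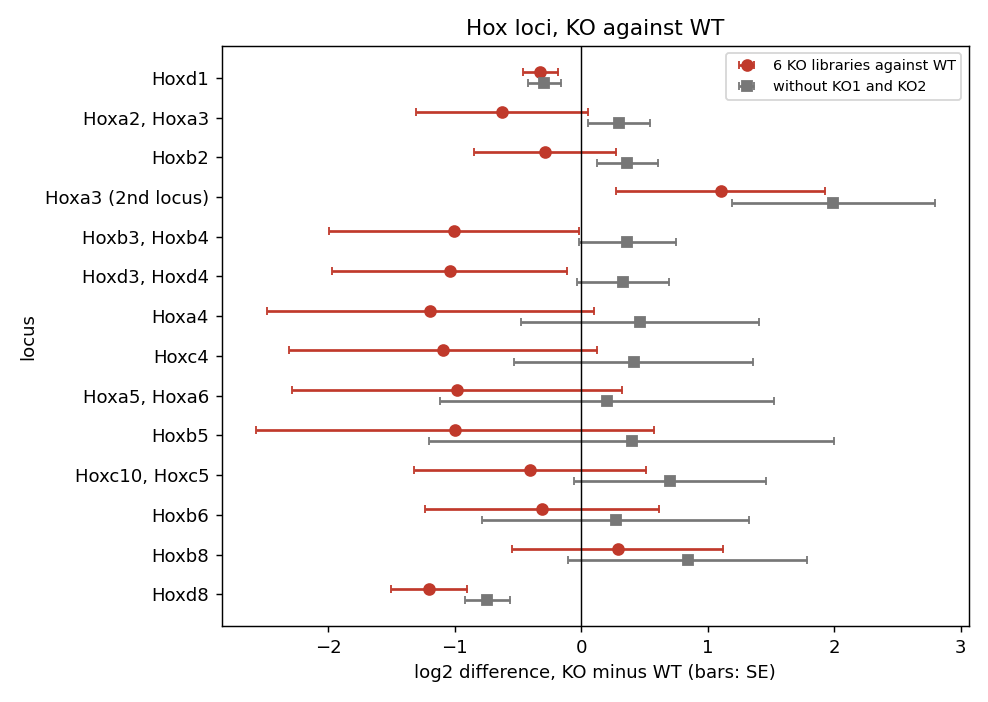
Log2 difference of KO minus WT with its SE for the 14 Hox loci, from all 6 KO libraries (red circles) and without KO1 and KO2 (grey squares). The Hoxd8 estimate lies below 0 in both, at -1.20 and -0.74, while most loci of paralogues 2 to 6 move across 0.

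Hoxd8 (chromosome 2, 74704615 to 74707933, plus strand) sits in the middle of HoxD between Hoxd9 and Hoxd4. It had 0.243, 0.310, 1.30, 0.751, 0.769 and 0.778 FPKM in KO1 to KO6. It had 1.38, 1.74 and 1.0 FPKM in HET3 to HET5, and 1.35, 1.59, 1.77, 1.56 and 1.43 FPKM in WT1 to WT5. Every KO library was below every WT library, by a narrow margin for KO3, an order found for 1.99% of all tested loci. The means were 0.692 ± 0.384 FPKM in KO (SD, n = 6), 1.38 ± 0.370 FPKM in HET (SD, n = 3) and 1.54 ± 0.162 FPKM in WT (SD, n = 5). The KO against WT difference was -1.20 log2 (SE 0.30, limma-trend adjusted p = 0.0069). It was called under all 25 alternatives, with adjusted p from 3.0e-04 to 0.0211, but its size moved: without KO1 and KO2 it was -0.74 log2 (SE 0.18, adjusted p = 0.0080). In KO4, KO5 and KO6, whose Hoxd3, Hoxd4 level was within or above the WT range, Hoxd8 was at 0.751 to 0.778 FPKM. The ratio of Hoxd8 to the Hoxd3, Hoxd4 locus was 0.072, 0.0552 and 0.0786 in KO4 to KO6 and 0.297, 1.45 and 0.264 in KO1 to KO3, against 0.165, 0.244 and 0.34 in HET3 to HET5, and 0.166 to 0.29 in WT.

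Hoxd9, the next gene on one side, was lower than Hoxd8, and Hoxd1, at the far end of the cluster, was higher. Hoxd9 (chromosome 2, 74697727 to 74700208) was below the filter, with 0.043, 0.051, 0.0999, 0.0292, 0.146 and 0.132 FPKM in KO1 to KO6. It had 0.172, 0.202 and 0.136 FPKM in HET3 to HET5, and 0.121, 0.175, 0.386, 0.278 and 0.119 FPKM in WT1 to WT5. The KO libraries were low, but 2 of them lay above the lowest WT library. Tested without the filter over 47204 loci, Hoxd9 differed by -0.75 log2 (SE 0.25, limma-trend adjusted p = 0.0836), and of the 34 members then tested only Hoxd8 was called, where 11.5% of all loci were. The authors' log2 matrix is blank where the FPKM is 0 and was fitted with no 0.1 added, so its differences are on another scale. In it Hoxd9 differed by -1.95 log2 (SE 0.45, limma-trend adjusted p = 0.0035), where 35.1% of all loci were called. Hoxd1 (chromosome 2, 74762980 to 74765142) had 2.20, 1.34, 2.32, 1.40, 2.03 and 1.77 FPKM in KO1 to KO6. It had 2.32, 2.70 and 2.77 FPKM in HET3 to HET5, and 2.37, 2.38, 2.47, 2.32 and 1.93 FPKM in WT1 to WT5. The groups overlapped through WT5, and the KO against WT difference of -0.32 log2 (SE 0.14) had an adjusted p of 0.108. It was called under quantile normalization (-0.70 log2), under library weights and without KO3, and in no other of the 25 alternatives. In the authors' matrix it was -0.03 log2 (limma-trend adjusted p = 0.874), and without KO1 and KO2 it was -0.29 log2 (SE 0.13, limma-trend adjusted p = 0.14).

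**Figure D5:**
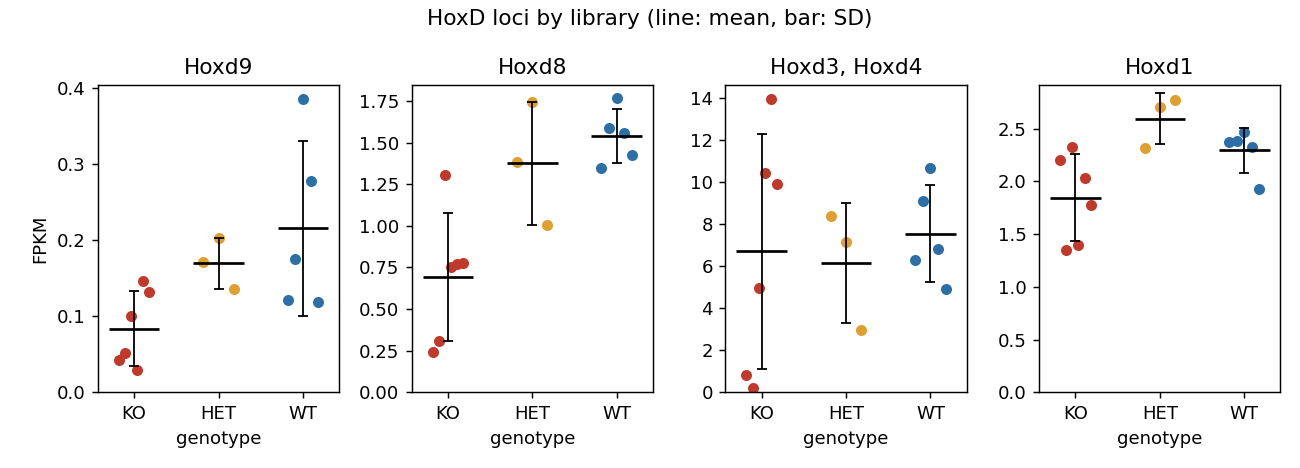
FPKM of Hoxd9, Hoxd8, the Hoxd3, Hoxd4 locus and Hoxd1, in their order along HoxD, with 1 point a library, the group mean as a line and the SD as a bar (KO n = 6, HET n = 3, WT n = 5). All KO points for Hoxd8 lie below all WT points (1.35 FPKM and more), whereas the KO points of the Hoxd3, Hoxd4 locus lie on both sides of WT.

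Promoters of these HoxD genes are shown because Hoxd8 was the called member, Hoxd9 and Hoxd1 are the other HoxD genes set beside it, and Hoxa5 stands for the loci that vary most between libraries. Each runs from 250 bases before to 50 bases after the RefSeq start, on the gene's strand (GRCm38.p6), and capitals mark the hexamer AGGTCA, the core letters bound by retinoic acid receptors and related factors, on either strand.
Hoxd8, chr2:74704365-74704664, plus strand: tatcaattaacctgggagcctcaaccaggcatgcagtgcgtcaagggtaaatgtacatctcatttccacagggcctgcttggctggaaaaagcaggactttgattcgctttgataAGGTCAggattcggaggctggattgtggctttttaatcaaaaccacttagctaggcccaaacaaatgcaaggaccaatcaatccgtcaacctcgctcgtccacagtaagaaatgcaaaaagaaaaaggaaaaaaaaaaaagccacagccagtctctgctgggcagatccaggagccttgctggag
Hoxd9, chr2:74697513-74697812, plus strand: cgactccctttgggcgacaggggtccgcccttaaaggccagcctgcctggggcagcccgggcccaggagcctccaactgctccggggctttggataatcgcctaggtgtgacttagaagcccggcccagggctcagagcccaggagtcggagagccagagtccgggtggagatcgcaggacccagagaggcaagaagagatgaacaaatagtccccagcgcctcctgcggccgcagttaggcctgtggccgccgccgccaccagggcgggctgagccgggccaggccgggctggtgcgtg
Hoxd1, chr2:74762730-74763029, plus strand: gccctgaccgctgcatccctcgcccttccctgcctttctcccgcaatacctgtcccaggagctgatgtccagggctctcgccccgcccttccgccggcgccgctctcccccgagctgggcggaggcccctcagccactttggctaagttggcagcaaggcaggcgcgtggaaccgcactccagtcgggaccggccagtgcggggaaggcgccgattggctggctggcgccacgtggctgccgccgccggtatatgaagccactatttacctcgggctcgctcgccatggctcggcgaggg
Hoxa5, chr6:52204538-52204837, minus strand: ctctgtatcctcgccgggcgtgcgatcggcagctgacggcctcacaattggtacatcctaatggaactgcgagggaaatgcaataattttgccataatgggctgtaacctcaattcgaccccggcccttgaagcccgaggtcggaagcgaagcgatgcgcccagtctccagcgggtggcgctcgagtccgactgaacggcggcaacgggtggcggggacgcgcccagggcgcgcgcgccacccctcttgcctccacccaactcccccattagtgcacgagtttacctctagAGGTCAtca
Hoxd8 and Hoxa5 hold 1 match each, Hoxd9 and Hoxd1 none. The Hoxd8 window has 6 CG dinucleotides, against 20 in Hoxd9, 29 in Hoxd1 and 29 in Hoxa5, a median of 14.5 in 24 Hox promoters of 22 genes, and a median of 7 in all 32851 promoters of the table. The hexamer was found on either strand in 7 of 24 Hox promoters, those of Hoxa5, Hoxb4, Hoxc4, Hoxd3, Hoxd4, Hoxd8 and Hoxd10, and in 16.3% of all promoters. TGATNNAT, the letters of a joint Pbx and Hox site, was found in 4 Hox promoters and in 8.85% of all, and CCAAT in 15 Hox promoters and in 37.4% of all. Both strands were searched, matches of different motifs may share bases, and a match is a description of letters, not of binding.

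HET against WT gave no call among the 14 Hox loci with limma-trend, and 0 had an unadjusted p under 0.05. Over all tested loci 0.00549% were called, which is 1 locus. The median of the Hox loci was -0.091 log2 and that of all tested loci -0.0046 log2. Hoxd8 differed by -0.18 log2 (SE 0.36) and Hoxd1 by 0.17 log2 (SE 0.17). With 3 HET libraries, of which HET5 was low from paralogue 3 on, standard errors reached 1.90 log2 for Hoxb5.

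KO against HET called 2 Hox loci lower and 0 higher, where 22.3% of all tested loci were called, 17.9% higher and 4.36% lower. Hoxd1 differed by -0.50 log2 (SE 0.16, limma-trend adjusted p = 0.037), with 1.34 to 2.32 FPKM in KO and 2.32 to 2.77 FPKM in HET. Hoxd8 differed by -1.02 log2 (SE 0.35, limma-trend adjusted p = 0.0481), with 0.243 to 1.30 FPKM in KO and 1.0 to 1.74 FPKM in HET. The adjusted p of Hoxd8 rose above 0.05 in 17 of the 25 alternatives and that of Hoxd1 in 11. Without KO1 and KO2, Hoxd8 differed by -0.56 log2 with an adjusted p of 0.067, and Hoxd1 was the 1 call left, at -0.46 log2 (SE 0.15, limma-trend adjusted p = 0.0405). In that fit the Hoxa2, Hoxa3 locus was at 0.77 log2 (SE 0.28, limma-trend adjusted p = 0.0694), against -0.16 log2 (SE 0.79) with all libraries. The other loci had adjusted p-values from 0.161 for Hoxb2 to 0.933 for the Hoxa5, Hoxa6 locus without KO1 and KO2. Both comparisons with KO share the same 6 KO libraries, so their values are not independent.

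The clusters also hold antisense, microRNA and unnamed loci. Within the spans of the 4 clusters lay 28 loci that are no members, of which 5 were tested, and limma-trend called 0 of them in KO against WT, HET against WT or KO against HET, with 0 at an unadjusted p under 0.05. HoxA lies on chromosome 6, and the spans of the others were chromosome 11, 96194316 to 96368256 (HoxB), chromosome 15, 102921103 to 103036852 (HoxC), and chromosome 2, 74668310 to 74765142 (HoxD). The Hoxb3os locus, antisense to Hoxb3, had 1.5, 0.217, 2.07, 2.52, 4.30 and 2.72 FPKM in KO1 to KO6. It had 1.82, 1.19 and 1.19 FPKM in HET3 to HET5, and 1.12, 1.51, 1.62, 1.28 and 1.30 FPKM in WT1 to WT5. All KO libraries but KO1 and KO2 were above every WT library. With all 6 KO libraries kept, every KO library was above every WT library at 15.3% of all tested loci. The difference was 0.32 log2 (SE 0.50, limma-trend adjusted p = 0.713) with all libraries, 0.82 log2 (adjusted p = 0.0134) without KO2 and 0.99 log2 (adjusted p = 0.0019) without KO1 and KO2. The Haglr, Hoxd3os1 locus, antisense in HoxD, had 1.61 ± 1.0 FPKM in KO (SD, n = 6), 1.47 ± 0.441 FPKM in HET (SD, n = 3) and 1.60 ± 0.297 FPKM in WT (SD, n = 5), with an adjusted p of 0.722. The 5730596B20Rik locus in HoxA had 0.420 ± 0.358 FPKM in KO (SD, n = 6), 0.189 ± 0.121 FPKM in HET (SD, n = 3) and 0.266 ± 0.107 FPKM in WT (SD, n = 5), with an adjusted p of 0.855 and, without KO1 and KO2, 0.94 log2 with an adjusted p of 0.044. At this locus and at Hoxb3os, KO1 and KO2 were the lowest KO libraries, so leaving them out raises the estimate. The share of all loci called without them is not reported here. The HoxD locus RP23-190O13.3, RP23-190O13.4 had 0.527 ± 0.228 FPKM in KO (SD, n = 6), 0.488 ± 0.214 FPKM in HET (SD, n = 3) and 0.395 ± 0.216 FPKM in WT (SD, n = 5), with an adjusted p of 0.504. The locus with the names Hotairm1, Hoxaas2 and Hoxaas3 had 766 FPKM in HET5, against 5.14 and 6.40 FPKM in HET3 and HET4, 6.36 to 40.5 FPKM in KO and 6.10 to 23.6 FPKM in WT. Its adjusted p in KO against WT was 0.823.

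Of the microRNA and further non-coding names, Mir10a, Mir10b, Mir196a-1, Mir196a-2, Mir615 and Hotair were listed at 0 in every library, as were 17 of the 28 loci. Hottip reached 0.00664 FPKM in KO. Hoxb5os reached 0.224 FPKM in KO5, 0.347 FPKM in HET3 and 0.161 FPKM in WT2, the 3 libraries that were also highest in Hoxb5 in their genotype. Unnamed loci were called higher in KO against WT in 65.7% of the 2004 tested, and 2 lay inside HoxB, both below the filter. The unnamed locus at chromosome 11, 96285595 to 96286261, had 0.0242, 0.54 and 0.149 FPKM in KO4 to KO6 and 0.0812 FPKM in HET3, and 0 in the other libraries. The unnamed locus at chromosome 11, 96314098 to 96315074, had 0.289, 0.61 and 0.287 FPKM in KO4 to KO6 and 0 in the other libraries. Both were thus at 0 in all WT libraries and in KO1 to KO3, and tested without the filter their adjusted p-values were 0.449 and 0.233.

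Partners and regulators of Hox proteins were taken from lists of known genes. Of 9 TALE homeobox cofactors, which bind DNA together with Hox proteins, 2 rose and 1 fell in KO against WT, with a list median of -0.055 log2. Pknox2 had 16.0 ± 0.829 FPKM in KO, against 13.5 ± 0.893 FPKM in WT (SD, n = 6 and 5; 0.24 log2, limma-trend adjusted p = 0.0035), and Pknox1 had 8.65 ± 0.384 FPKM in KO, against 9.86 ± 0.408 FPKM in WT (-0.19 log2, limma-trend adjusted p = 0.0093). The locus that Pbx2 shares with Notch4, Gpsm3 and Ager also rose (0.28 log2, limma-trend adjusted p = 0.0103), and its genes cannot be told apart. Of 23 upstream regulators and retinoic acid genes 17 were tested, and 0 rose and 2 fell, with a median of -0.068 log2. One of them was the locus that the retinol receptor gene Stra6 shares with Islr and Islr2, at -0.25 log2 (limma-trend adjusted p = 0.0455). Rxrg, the third by p, had -0.40 log2 with an adjusted p of 0.153. Egr2, Cdx1, Cdx2 and Cdx4 were among those that did not pass the filter.

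Polycomb proteins hold Hox clusters silent and Trithorax proteins keep them active. Of 21 Polycomb genes 1 fell and 0 rose, with a median of -0.010 log2: the locus of Cbx6, shared with Npcd and Nptxr, had 26.3 ± 3.20 FPKM in KO, against 32.8 ± 1.97 FPKM in WT (SD, n = 6 and 5; -0.33 log2, limma-trend adjusted p = 0.0052). Ezh1 (adjusted p = 0.105) and Phc3 (adjusted p = 0.195) were the next by p. Of 12 Trithorax genes none was called by limma-trend and 0 had an unadjusted p under 0.05, with a list median of -0.013 log2, and the smallest limma-trend adjusted p was 0.205, for the Kmt2d locus, followed by Chd7 (adjusted p = 0.22) and Kdm6a (adjusted p = 0.427). Of 13 tested genes that flank the clusters 1 rose and 2 fell, with a list median of 0.095 log2. Evx2, a homeobox gene next to Hoxd13, had 1.94, 1.45, 1.15, 1.67, 1.65 and 1.67 FPKM in KO1 to KO6, against 1.02, 1.17 and 1.31 FPKM in HET3 to HET5, and 1.02, 1.09, 1.27, 0.887 and 1.19 FPKM in WT1 to WT5 (0.50 log2, SE 0.13, limma-trend adjusted p = 0.0103). KO3 was the 1 KO library inside the WT range. Skap2, beside HoxA, had -0.32 log2 (limma-trend adjusted p = 0.0244), and Calcoco1, on the HoxC side, had -0.17 log2 (limma-trend adjusted p = 0.0411). None of the genes in these lists was called in HET against WT.

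The calls in these lists and in the tissue marker lists stand beside 24.6% of all tested loci called in KO against WT, 19.0% higher and 5.61% lower. Of 5 midbrain markers 2 rose, En2 (10.3 ± 1.45 FPKM in KO, against 7.82 ± 1.22 FPKM in WT; SD, n = 6 and 5; 0.40 log2, limma-trend adjusted p = 0.0127) and Pax5 (4.6 ± 1.09 FPKM in KO, against 2.70 ± 0.384 FPKM in WT; 0.73 log2, limma-trend adjusted p = 0.0019), both of the midbrain and hindbrain boundary. For both genes KO1 and KO2 were the 2 highest libraries, with 12.2 and 12.1 FPKM of En2 and 5.37 and 6.39 FPKM of Pax5, against 9.03 to 10.3 FPKM and 3.42 to 4.38 FPKM in KO3 to KO6. The values of both genes in the fit without KO1 and KO2 are not reported here. Of 4 cranial ganglion markers Neurog1 rose (0.44 log2, limma-trend adjusted p = 0.0354), and of 7 somite and neck mesoderm markers Pax3 rose (0.17 log2, limma-trend adjusted p = 0.0402). None of the 6 forebrain, 8 hindbrain, 7 pharyngeal or 2 tested trunk markers was called, and the smallest limma-trend adjusted p-values in these lists were 0.443 for Emx1, 0.159 for Ptf1a, 0.158 for Pax9 and 0.0611 for Tbx4. Of these markers, Tbx4 alone had an unadjusted p under 0.05.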

How the data were processed

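RNA of 14 E12.5 head libraries was analysed from FPKM values that the authors deposited per library. Cuffdiff, TopHat2 2.1.0, FastQC 0.10.0, Partek, bcl2fastq and the build mm10 appear in the submitters' processing notes, and no source used here gives strand settings, gene models or filters. The authors' second deposited table is a matrix of log2 values, blank where FPKM is 0, with columns that look quantile normalized; it served as an alternative input. File starts were read as counted from 0. Gene coordinates and identifiers came from GENCODE M21 (mm10), and promoters from RefSeq (GRCm38.p6).

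Here, log2(FPKM + 0.1) of the 18217 loci with at least 0.5 FPKM in at least 3 libraries was fitted with limma-trend (limma 3.58.1, R 4.3.3, robust), all 14 libraries in 1 fit with a mean per genotype, and p-values were adjusted by Benjamini-Hochberg over all tested loci. The fit was tested on simulated data. Zcchc8 was also compared by two-sided exact permutation tests (scipy 1.17.1, Python 3.11.15, pandas 2.3.3, numpy 2.4.6; figures with matplotlib 3.10.9). No 2 libraries had identical values. Depth is unknown.

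The members and the 13 gene lists, 7 of them tissue markers, were chosen with earlier results of these data known. All members are counted, and a few genes of the lists and members are not reported here by name; of each other list the called genes and the 3 with the smallest p in KO against WT are named, and in the marker lists the called genes, the gene with the smallest p where none was called, and the markers that set libraries apart. Alternatives were pseudocounts of 0.5 and 1, no filter, a stricter filter of 1 FPKM in 6 libraries, scaling to a common median, quantile normalization, the authors' matrix, the replicate number as a block, only the compared groups, library weights, and leaving out each library in turn. Leaving out KO1 and KO2 together was added after seeing the data.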

Additional observations from a re-analysis of the deposited data

Results flagged for a closer look

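In each group of 5 or 6 libraries, a library whose gap to its nearest neighbour took up most of the group's range (Dixon's 95% critical value) was picked out. Of 38 such groups 7 gave a library. The rate of 1 in 20 behind the critical value holds for independent groups of normally distributed values. These groups share libraries and neighbouring genes and are in FPKM, so 7 of 38 cannot be set against that rate. KO5 stood above the other KO libraries for Hoxb5 (11.7 FPKM), the Hoxa5, Hoxa6 locus (6.80 FPKM), Hoxb6 (2.23 FPKM) and Hoxb8 (2.06 FPKM). WT2 stood above the other WT libraries for Hoxb6 (1.21 FPKM) and Hoxb8 (0.729 FPKM). WT5 stood below the other WT libraries for Hoxd1 (1.93 FPKM). None of these loci was called in KO against WT with all libraries, and the HET group, with 3 libraries, was not examined this way.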

How the results depend on the processing

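Hoxd8 in KO against WT kept its direction and its call under all 25 alternatives, with log2 differences from -2.14 (quantile normalization) to -0.61 (pseudocount 1) and from -1.40 to -0.99 when 1 library was left out. The count of Hox loci called lower in KO against WT was 2 under quantile normalization, the authors' matrix and library weights, and 1 to 2 when 1 library was left out. In KO against HET it was 0 with no filter, with the stricter filter and with only the compared groups. It was 1 with a common median and without KO1 and KO2, and 0 to 2 when 1 library was left out. In the authors' matrix it was 3 (Hoxd8, Hoxd9 and Hoxc13). That matrix tested a different set of 15 members, and it called 35.1% of all loci in KO against WT. The shares of all loci called in KO against HET under these alternatives are not reported here, so the counts cannot be set against them. The count of other loci in the spans called higher was 0 to 1 in KO against WT and 0 to 1 in KO against HET when 1 library was left out, being 1 without KO2, and 2 in both without KO1 and KO2. The count called lower was 2 in KO against WT and 1 in KO against HET under quantile normalization. Directions reversed under quantile normalization for 5730596B20Rik (-1.09 log2, KO against WT) and for the RP23-190O13.3, RP23-190O13.4 locus (-1.03 log2 in KO against WT, -1.29 log2 in KO against HET). Quantile normalization moved the median of all loci to -0.051 log2 and the authors' matrix to 0.17 log2. Zcchc8 in HET against WT (-0.62 log2) had an adjusted p of 1 in the joint fit and passed the threshold at -0.62 log2 (adjusted p = 0.0177) with only the compared groups. Of 1026 values of Hox loci under alternatives, 76 changed sign with no call in either fit. The cause of these changes was not tested.

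Pairing of libraries with the same number was checked by the correlation of their deviations from the group means. Over 11 pairs it ran from -0.114 to 0.1004, and 5 of 13 libraries correlated best with their own number. The number to be had without pairing was not worked out, so the check does not decide whether same-numbered libraries are paired. With the replicate number as a block, Hoxd8 in KO against WT was at -1.26 log2 (limma-trend adjusted p = 0.0059), 1 Hox locus was called lower there, and 0 were called in KO against HET.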
